A study of Mus musculus with 3 samples.

Results

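Peroxiredoxins and glutathione peroxidases are enzymes that break down hydrogen peroxide and lipid peroxides in mammalian cells, and thioredoxin reduces peroxiredoxins again. Their genes were followed here as a set of 10: the peroxiredoxin genes Prdx1 to Prdx6, the thioredoxin gene Txn1, the thioredoxin reductase gene Txnrd1 and the glutathione peroxidase genes Gpx1 and Gpx4. They were chosen by name as redox enzyme genes, and each matched 1 of the 50600 gene identifiers through its GENCODE symbol. The cells were regulatory T cells (Treg), the Foxp3-dependent CD4 T cells that restrain immune responses, taken as primary cells from C57BL/6NJ mice. There was 1 group of 3 libraries (biological replicates 2, 3 and 4), with no second condition. The labels link a CD4 T cell differentiation protocol, and file headers name the samples as activated for 16 hours. The assay is labelled as total RNA, although the library protocol they link is named for poly(A) RNA. All libraries carry 1 donor identifier, with age unknown and sex not collected, so the labels do not say whether they came from separate animals, and the SDs below may hold technical as well as biological spread.

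A peroxiredoxin reacts with peroxide through a cysteine near its N-terminal side, the peroxidatic cysteine, which is oxidised and then reduced again. In the cytosol the usual reductant of peroxiredoxins is thioredoxin (Txn1), which Txnrd1 recharges with electrons from NADPH. In mitochondria Txn2 and Txnrd2 serve Prdx3, protein disulfide isomerases mainly serve Prdx4, and Prdx6 relies mainly on glutathione. Prdx1 and Prdx2 act in the cytosol and nucleus, Prdx3 in mitochondria, Prdx4 in the endoplasmic reticulum, and Prdx5 in several compartments, mitochondria and peroxisomes among them. Gpx1 removes soluble peroxides with glutathione, and Gpx4 reduces lipid peroxides within membranes and so restrains ferroptosis. In mouse T cells, Gpx4 is known to protect activated cells from lipid peroxidation, and thioredoxin reduction supports DNA synthesis during proliferation.

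The catalytic residues divide the set into cysteine and selenocysteine enzymes, and the codons that encode them are shown because they carry the chemistry that defines each enzyme. Each stretch is coding sequence of a GENCODE M21 transcript (GRCm38) written 5′ to 3′ on the gene's strand. In the peroxiredoxin lines the capitals mark the codon of the peroxidatic cysteine, found as the cysteine that follows a proline and a threonine or serine at the spacing the family shares. The stretches of Prdx3, Prdx4 and Prdx5 span an intron. In the line for Txn1 they mark the codons from the first to the second active-site cysteine.
Prdx1: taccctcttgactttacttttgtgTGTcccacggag
Prdx2: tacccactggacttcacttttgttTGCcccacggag
Prdx3: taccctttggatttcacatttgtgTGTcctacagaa
Prdx4: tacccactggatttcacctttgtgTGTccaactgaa
Prdx5: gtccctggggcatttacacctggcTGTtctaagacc
Prdx6: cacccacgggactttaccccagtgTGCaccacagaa
Txn1: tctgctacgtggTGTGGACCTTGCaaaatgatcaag

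The other 3 members use selenocysteine, encoded by an in-frame TGA that would otherwise stop translation. Capitals mark that codon as the annotation places it, and the line for Txnrd1 ends with the true stop codon, since its selenocysteine is the last residue but 1.
Txnrd1: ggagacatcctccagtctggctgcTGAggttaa
Gpx1: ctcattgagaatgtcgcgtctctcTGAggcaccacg
Gpx4: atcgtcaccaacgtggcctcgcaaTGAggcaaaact

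On the gene's coding sequence the cysteine codon was number 52 of 199 in Prdx1, 51 of 198 in Prdx2, 109 of 257 in Prdx3, 127 of 274 in Prdx4, 96 of 210 in Prdx5 and 47 of 224 in Prdx6. The selenocysteine codon was number 498 of 499 in Txnrd1, 47 of 201 in Gpx1 and 73 of 197 in Gpx4. In mm10 coordinates it lay at chromosome 10, 82896037 to 82896039 in Txnrd1, at chromosome 9, 108339451 to 108339453 in Gpx1, and at chromosome 10, 80054737 to 80054739 in Gpx4, each inside a coding exon. Among peroxiredoxins the coding sequences of Prdx1 and Prdx2 were the most alike, identical at 70.0% of 597 aligned bases, followed by Prdx2 and Prdx4 at 69.3% of 589. Prdx1 and Prdx5 were the least alike, at 58.3% of 540.

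The libraries held 41222058, 47665060 and 99097524 counted fragments in replicates 2, 3 and 4. The Treg and T cell markers were present (5 of 5 genes of each list at 1 TPM or more in every library; Foxp3 at 80.9 ± 3.97 TPM, SD, n = 3), where TPM is the level unit used here, fragment count per base of merged exon scaled to a common total. The lowest Treg marker, Ikzf2, was at only 3.94, 2.66 and 3.06 TPM in replicates 2, 3 and 4, and the other 4 of 5 reached 10 TPM in every library. Neutrophil markers had no fragment, and the summed level was 3.02 to 5.49 TPM for 7 monocyte or macrophage markers, 5.10 to 9.14 for 5 B cell markers and 0.742 to 1.22 for 5 platelet markers. Sex-linked RNAs set the libraries apart. Xist, the RNA of the inactive X chromosome, was at 126, 0.331 and 36.1 TPM, and the Y-linked Ddx3y at 0.126, 39.3 and 28.4 TPM, in replicates 2, 3 and 4. Replicate 2 thus held mainly Xist, replicate 3 mainly Ddx3y, and replicate 4 both. The shared donor identifier covers libraries of unlike sex, and the labels do not give the number of animals.

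All 10 genes were abundant. Each exceeded 10 TPM in every library and 8 exceeded 100, whereas 34.8% and 8.80% of 21764 protein-coding genes did so. Together they took 0.203 ± 0.00541% of all fragments (SD, n = 3) and summed to 3219, 3210 and 3094 TPM in replicates 2, 3 and 4. Their median was 177 TPM, beside 0.355 TPM for all protein-coding genes, of which only 45.6% reached 1 TPM in every library. The order by mean level was Txn1, Gpx1, Prdx3, Prdx1, Prdx2, Txnrd1, Prdx6, Gpx4, Prdx5 and Prdx4, an order that in part changed with the transcript length used. Gene coordinates are those of mm10.

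**Figure D1:**
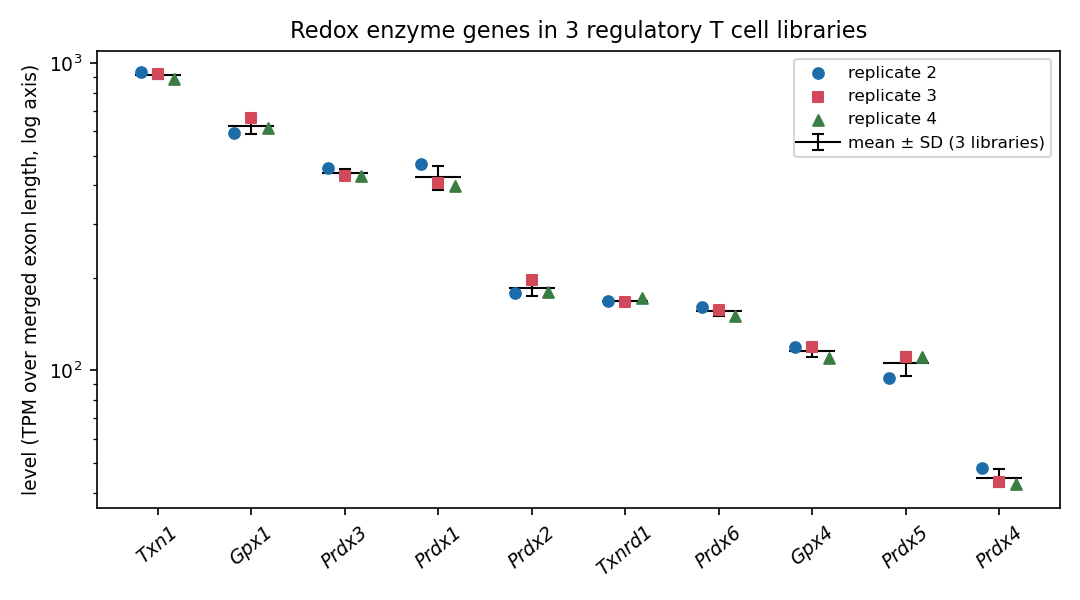
Level of each gene in TPM over merged exon length (log axis), with 1 point per library and the mean ± SD of 3 libraries as black bars. Txn1 stands highest at 913 TPM and Prdx4 lowest at 44.8 TPM, while Prdx3 and Prdx1, and Gpx4 and Prdx5, overlap between libraries.

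The cytosolic peroxiredoxins differed in level. Prdx1 (ENSMUSG00000028691.12, chromosome 4, 116685544 to 116700822) stood at 469, 406 and 398 TPM in replicates 2, 3 and 4, a mean of 424 ± 38.6. Prdx2 (ENSMUSG00000005161.15, chromosome 8, 84969587 to 84974834), a peroxiredoxin best known from red blood cells, stood at 179, 197 and 180 TPM, a mean of 185 ± 10.2. No library of Prdx2 came near the lowest of Prdx1. The log2 difference of Prdx1 over Prdx2 was 1.19 ± 0.18, positive in 3 of 3 libraries (2.28-fold; exact sign-flip permutation p = 0.25, two-sided). Beside the level of Prdx2, the 9 erythroid markers summed to 0.527 to 1.19 TPM. Of these, 6 had no fragment in any library: the globin genes Hba-a1, Hba-a2, Hbb-bs and Hbb-bt, and Alas2 and Slc4a1. Fragments that align equally well to several globin genes would not have been counted, and that loss was not tested. The origin of the Prdx2 RNA was not tested either.

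In the organelles, the mitochondrial Prdx3 dominated. Prdx3 (ENSMUSG00000024997.7, chromosome 19, 60864051 to 60874556) was at 454, 429 and 429 TPM, a mean of 437 ± 14.6. Prdx5 (ENSMUSG00000024953.16, chromosome 19, 6906697 to 6910106) was at 94.7, 111 and 111 TPM, a mean of 105 ± 9.27, with replicate 2 below the others. Prdx3 exceeded Prdx5 in 3 of 3 libraries, by 2.05 ± 0.18 on the log2 scale (4.13-fold; exact sign-flip permutation p = 0.25). Prdx4 of the endoplasmic reticulum (ENSMUSG00000025289.15, chromosome X, 155323918 to 155340754) was lowest of the set at 48.3, 43.4 and 42.7 TPM, a mean of 44.8 ± 3.08, which still placed it above 81.5% of protein-coding genes. Prdx1 over Prdx4 came to 3.21 ± 0.03 (9.28-fold), again in 3 of 3 libraries. Prdx4 is X-linked, and the library with the most Xist, replicate 2, was also its highest. Replicates 3 and 4 lay close together with 0.331 and 36.1 TPM of Xist. After scaling to a common library size, 4 of the 10 genes were highest in replicate 2, the autosomal Prdx1, Prdx3 and Prdx6 among them. The part of sex in the Prdx4 difference was not tested.

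Prdx6, which also acts as a phospholipase on membrane lipids (ENSMUSG00000026701.15, chromosome 1, 161240112 to 161251219), was steady at 161, 157 and 150 TPM, a mean of 156 ± 5.38. Its level exceeded that of Prdx5 by 0.57 ± 0.17 on the log2 scale, in 3 of 3 libraries. Prdx6b, its closest relative by name, had no fragment, where 3 fragments would make at most 0.0852 TPM. Of the summed TPM of the 6 peroxiredoxins, Prdx3 made 32.3 ± 0.36%, Prdx1 31.3 ± 1.76%, Prdx2 13.7 ± 0.972%, Prdx6 11.5 ± 0.136%, Prdx5 7.81 ± 0.937% and Prdx4 3.31 ± 0.114%.

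The reductants came next. Txn1 (ENSMUSG00000028367.5, chromosome 4, 57943373 to 57956411), the cytosolic thioredoxin, was at 936, 918 and 886 TPM, a mean of 913 ± 25.0 and rank 132 among protein-coding genes. Txnrd1 (ENSMUSG00000020250.10, chromosome 10, 82833951 to 82897712) was at 168, 166 and 171 TPM, a mean of 169 ± 2.62, the smallest spread in the set. The substrate exceeded its reductase by 2.43 ± 0.06 on the log2 scale (5.39-fold, 3 of 3 libraries). By merged exon length the mitochondrial counterparts were lower: Txn2 averaged 281 ± 15.3 TPM and Txnrd2 28.1 ± 1.42 TPM. The log2 difference was 1.70 ± 0.11 for Txn1 over Txn2 and 2.54 ± 0.06 for Txnrd1 over Txnrd2, each positive in 3 of 3 libraries with an exact sign-flip permutation p of 0.25. The differences with Txn1 on top depended on length: without any length (CPM), Txn1 over Txn2 turned to -0.30 and Txn1 over Txnrd1 to -0.31. With the shortest complete principal transcripts, Txn1 over Txn2 was 0.01 ± 0.11 (exact sign-flip permutation p = 1), so no direction can be given for that pair.

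Both glutathione peroxidases of the set were abundant, and the other members of the family lay below 1 TPM. Gpx1 (ENSMUSG00000063856.7, chromosome 9, 108338903 to 108340343) was at 591, 663 and 616 TPM, a mean of 623 ± 36.5, with replicate 3 highest. Gpx4 (ENSMUSG00000075706.10, chromosome 10, 80047166 to 80056439) was at 119, 119 and 110 TPM, a mean of 116 ± 5.38. Gpx1 exceeded Gpx4 in 3 of 3 libraries, by 2.42 ± 0.10 on the log2 scale (5.34-fold; exact sign-flip permutation p = 0.25). Of 6 further genes of the family, 0 reached 1 TPM in every library. Gpx7 was at 0.829 ± 0.174 TPM, Gpx3 had 1 fragment in all, and Gpx2, Gpx5, Gpx6 and Gpx8 had none, where 3 fragments would make at most 0.242 TPM.

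These differences and those between neighbours in the order of levels made 16 pairs. Neighbours were ordered by their mean level in these same libraries, so the direction of their mean difference was set in advance. Their signs therefore lend no support to the order. In 14 of the 16 pairs the difference kept 1 sign in all libraries, with an exact sign-flip permutation p of 0.25. That is the smallest p that 3 libraries allow, and it was 0.286 after Benjamini-Hochberg adjustment over the 16. None could pass a threshold of 0.05. The other 2 pairs were neighbours with mixed signs. By merged exon length, Prdx3 over Prdx1 was -0.04, 0.08 and 0.10 on the log2 scale in replicates 2, 3 and 4. Gpx4 over Prdx5 was 0.33, 0.10 and -0.02, so neither pair kept 1 direction by that length. The exact permutation test gave p = 0.5 for both, which does not show that the levels are equal. Among the rest, Prdx2 over Txnrd1 (0.13 ± 0.09) and Txnrd1 over Prdx6 (0.11 ± 0.07) were the closest neighbours.

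The order depended on the length by which counts were divided. The deposited length of a gene merges the exons of every annotated transcript, and it equalled the merged length in GENCODE M21 for each of the 10 genes. For Txn1 and Prdx3 that was the length of 1 transcript. For Prdx1 it was 3043 bases, 3.47 times its shortest complete transcript marked as principal (877 bases), and for Txnrd1 it was 7086 bases, 3.08 times the shortest such transcript. With that shorter length Prdx1 rose to first place at 937 ± 86.3 TPM, ahead of Txn1 at 581.5 ± 15.9 TPM, and its share of peroxiredoxin TPM came to 49.4 ± 2.23%, against 14.7 ± 0.258% for Prdx3. Prdx3 over Prdx1 then turned to -1.74 (log2), and it was -0.36 with the longest transcript. Txn1 over Txn2 shrank to 0.01 with the principal length and to 0.66 with the longest transcript. Txn1 over Txnrd1 shrank to 0.81 and 1.47 in the same order. Prdx1 over Prdx2 was 1.61 and 0.68, Prdx3 over Prdx5 1.29 and 1.82, and Prdx1 over Prdx4 3.93 and 2.59. Prdx6 over Prdx5 was 0.81 and 1.24. Gpx1 over Gpx4 (2.00 and 2.05) and Txnrd1 over Txnrd2 (2.97 and 2.90) kept their direction. Prdx4, Prdx5 and Gpx4 stayed the lowest 3 under all lengths.

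**Figure D2:**
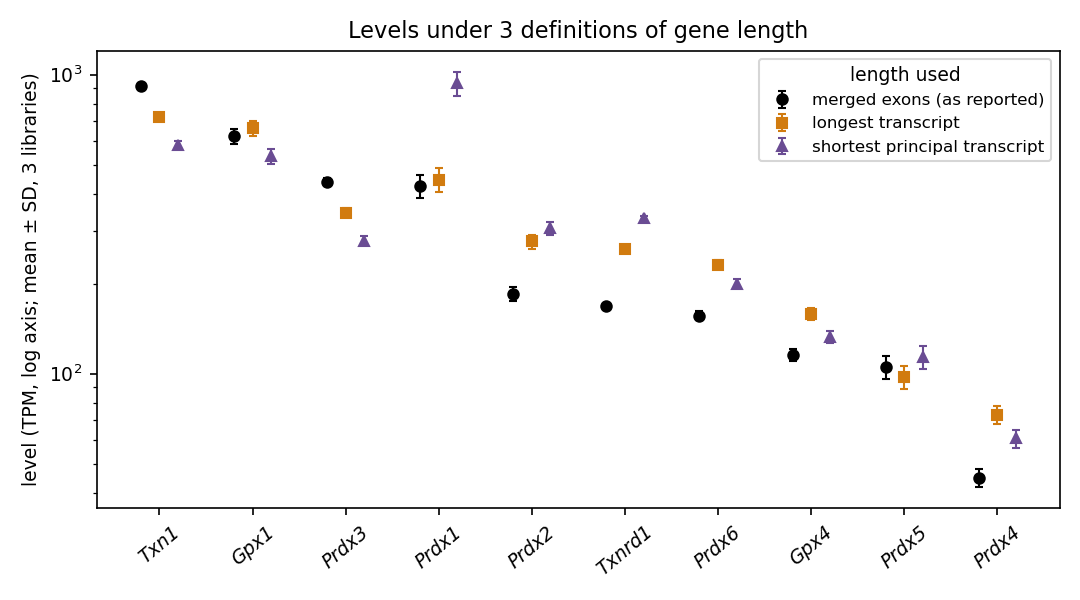
Mean level ± SD over 3 libraries (TPM, log axis) of each gene under the merged exon length, the longest annotated transcript and the shortest complete principal transcript. Prdx1 moves most, to 937 TPM from 424, while Gpx4, Prdx5 and Prdx4 hold the lowest places under each length.

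Of the 10 genes, 4 have near-identical copies elsewhere in the annotation. Fragments that align equally well to several places are left out by the counting program's default, so such copies can lower a gene's count. Prdx1 had 2 processed pseudogenes at 95% identity or more over at least 100 bases (Gm21399 and Gm7204, 98.3% and 97.5% identical over 597 bases), whose own fragments came to 0.682% of those of Prdx1. Gpx4 had Gpx4-ps2, 99.7% identical over 762 bases, with 166 fragments or 1.51% of the count of Gpx4, and a further match that was not analysed here. Prdx2 and Txn1 had 1 each (Tdpx-ps1 and Txn-ps1), at 0.0575% and 0.0622%. Levels of these 4 genes are uncertain to the extent that shared fragments were dropped, which was not tested. The other 6 genes had no such copy, and none of the 10 shared exon bases with another gene on its strand.

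Between the libraries the set varied little, about as much as other protein-coding genes that reached 10 TPM in every library. The counts were compared with a chi-square test of equal rates per gene on effective library sizes, in which each fragment is independent and which speaks of these libraries only. Calling a gene took an adjusted p under 0.05 together with a ratio of at least 2 between its highest and lowest normalised counts. Of the 10 genes, 0 were called, beside 10.9% of the 13688 genes tested, and 0 reached a ratio of 1.5, beside 16.1% called at that ratio. A tested gene needed only 30 fragments in all, so these shares are not matched to the 10 genes by level. On counting error alone, 9 of 10 passed at an adjusted p under 0.05 (also 9 unadjusted, 9 with DESeq2 size factors, and 6 to 8 when 1 replicate was left out), against 70.8% of all genes tested. Txnrd1 did not (ratio 1.02, chi-square adjusted p = 0.173).

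The ratios ran from 1.02 to 1.19 with a median of 1.12, and for the 7568 protein-coding genes that reached 10 TPM in every library the median was also 1.12. Prdx5 had the widest, 1.19, from normalised CPM (counts scaled to a common library size) of 59.9, 71.3 and 69.9 in replicates 2, 3 and 4. Prdx1 followed at 1.18, from 422, 372 and 357. Prdx5 was low and Prdx1 high in the same library, replicate 2. Gpx1 (252, 288 and 262) and Prdx2 (161, 181 and 162) were instead highest in replicate 3. Normalised Prdx4 was 30.1, 27.5 and 26.5 CPM. In bulk RNA, fewer cells of a type and less RNA per cell cannot be told apart.

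**Figure D3:**
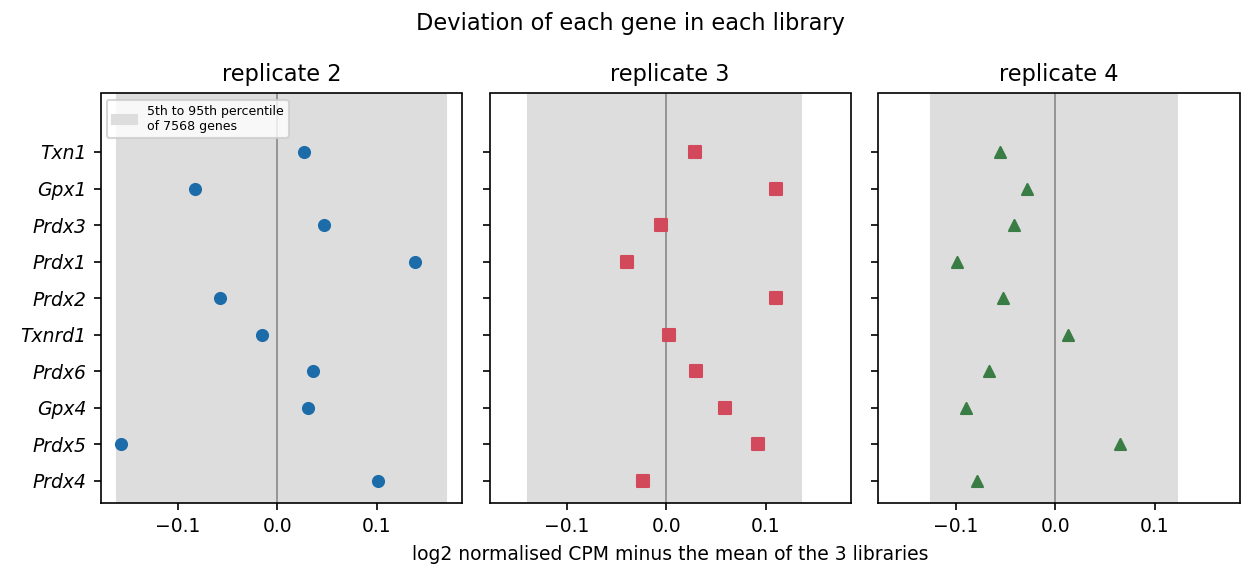
Deviation of each gene in each library from its 3-library mean, in log2 normalised CPM. The grey band spans the 5th to 95th percentile of the 7568 protein-coding genes that reached 10 TPM in every library, and all 10 genes lie inside it in each library.

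The biological coefficient of variation is edgeR's estimate of the spread beyond counting error. Here it is the tagwise value, which is drawn toward that of other genes and is not a gene's own spread. It was 7.18% (Prdx3) to 9.20% (Prdx4) for the 10 genes, with a median of 7.38%. For Txnrd1 it was 7.39%, while the SD of its TPM was only 1.55% of the mean. The median over all genes tested was 9.80% and the common value 11.1%. A tested gene needed only 30 fragments in all, so these values are not matched to the 10 genes by level. Each gene had at least 1242 fragments in a library, so counting error was at most 2.84% for Prdx4 and smaller for the rest.

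By level over the 3 libraries, the protein-coding genes nearest to Txn1 were Ran, the GTPase of nuclear transport (927 ± 23.9 TPM, a Euclidean distance of 0.0460 in log2(TPM + 1)), the ribosomal protein gene Rpl10a (918 ± 8.97 TPM) and the RNA-binding protein gene Pcbp2 (892 ± 31.2 TPM). Those nearest to Prdx4 were the amino acid transporter gene Slc16a10 (44.96 ± 2.87 TPM), the phosphatase subunit gene Ppp4r2 (44.98 ± 3.24 TPM) and the exocyst gene Exoc6 (44.4 ± 2.64 TPM).

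The partners of these enzymes were expressed unevenly. Of 132 further redox genes in 9 lists, 92 reached 1 TPM in every library, as did 45.6% of protein-coding genes, and 9 of the 105 tested were called between libraries, beside 10.9% of all genes tested. Among 22 thioredoxin and glutaredoxin partners 18 reached 1 TPM, led by Txn2, the mitochondrial iron-sulfur cluster glutaredoxin gene Glrx5 (253 ± 3.93 TPM) and Txnl1 (197 ± 16.8 TPM). Srxn1, the sulfiredoxin that rescues over-oxidised Prdx1 to Prdx4, was at 1.08, 2.00 and 0.946 TPM from 37, 81 and 78 fragments, and was called with replicate 3 highest (ratio 2.17, chi-square adjusted p = 4.4e-06). Msrb3 was also called, at 22, 0 and 18 fragments, and Nme9 had no fragment.

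The glutathione genes ranged widely in level. Of 22 genes of glutathione synthesis and use 16 reached 1 TPM, led by the transferase gene Gstp1 (297 ± 17.8 TPM), the amino acid transporter chain gene Slc3a2 (214 ± 12.5 TPM) and Gsto1 (91.7 ± 7.46 TPM). Glutathione reductase (Gsr), which returns glutathione to its reduced form, was at 86.4, 90.7 and 79.4 TPM, and Gclc, the catalytic subunit of the first step of synthesis, at 52.1, 47.0 and 53.1 TPM. Slc7a11, the partner of Slc3a2 in cystine import, had 11, 8 and 50 fragments, or 0.0759 ± 0.0425 TPM, and Mgst1 had none. Gstp2, a near copy of Gstp1, had 6 fragments in all, and the split of reads between the pair is uncertain. Slc7a11, Gsta4, Mgst3 and Hpgds were called between libraries, each below 10 TPM.

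The genes listed under selenoprotein synthesis were all detected. Each of these 12 genes reached 1 TPM in every library. They were led by Rpl30, a ribosomal protein that also binds selenocysteine insertion elements (335 ± 22.2 TPM), Sephs2, which makes the selenium donor (147 ± 2.70 TPM), and Trnau1ap (88.9 ± 3.39 TPM). The lowest were Pstk (5.91 ± 0.504 TPM), Sepsecs (13.65 ± 0.331 TPM) and Scly (15.9 ± 0.741 TPM). Of 16 other selenoprotein genes 11 reached 1 TPM, led by Selenow (259 ± 28.5 TPM), Selenoh (141 ± 6.04 TPM) and Selenot (138 ± 22.5 TPM). By merged exon length Gpx1 stood above each of them, and Txnrd1 above all but Selenow. These ranks were not examined under the other lengths. Selenom, the 1 gene of that list called, was at 0.479 ± 0.238 TPM from only 9, 15 and 10 fragments, and Selenov, Dio1 and Dio3 had no fragment.

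The list of superoxide and catalase genes was led by cytosolic Sod1 at 999 ± 42.5 TPM. Mitochondrial Sod2 was at 80.5 ± 4.26 TPM and catalase (Cat) at 77.2 ± 4.38 TPM. Ccs, the copper chaperone of Sod1, was at 72.6 ± 5.73 TPM, and Sod3 had no fragment. Of 20 genes of the NRF2 axis, the main transcriptional pathway for antioxidant genes, 17 reached 1 TPM. Ferritin chains Fth1 (1329 ± 12.9 TPM) and Ftl1 (704 ± 54.0 TPM) and the pentose phosphate enzyme Tkt (429 ± 29.9 TPM) led, while Nqo1, a classic NRF2 target, was at 0.422, 0.629 and 0.441 TPM from 8, 14 and 20 fragments. Me1 and Osgin1, also NRF2 targets, were the lowest of the list, with 12 and 9 fragments in all.

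**Figure D4:**
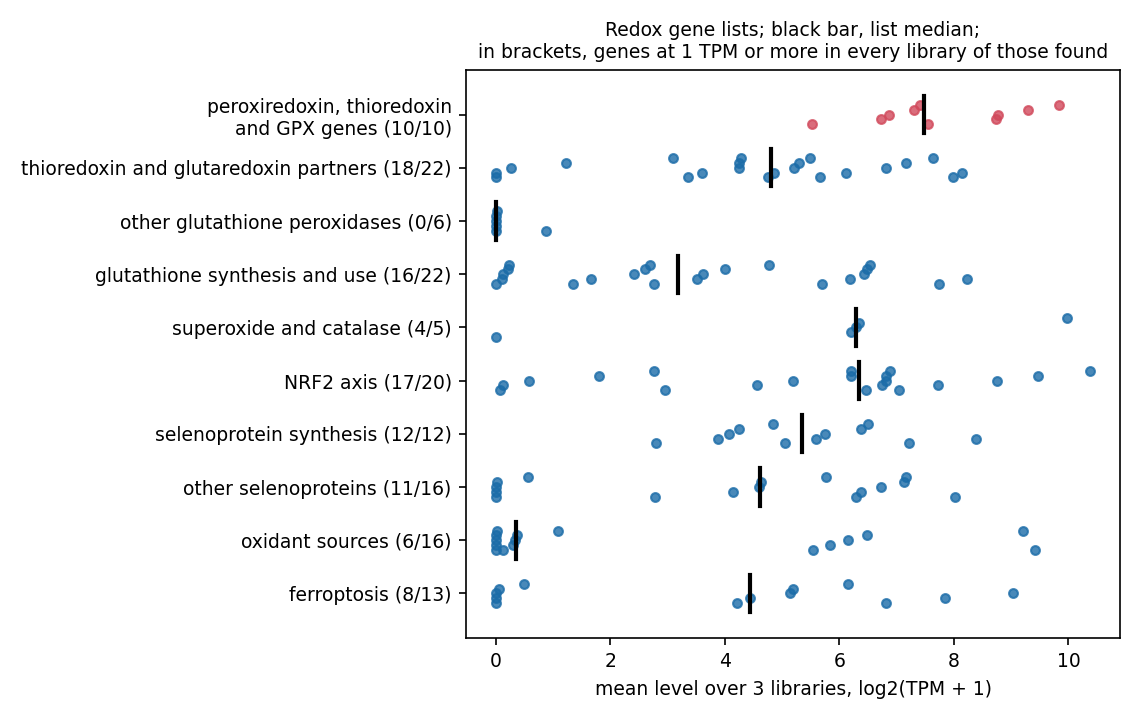
Mean level over 3 libraries in log2(TPM + 1) of the 10 genes (red) and of the genes in 9 further redox lists (blue), with list medians as black bars and the number at 1 TPM or more in every library of those found in brackets. The 10 genes all lie above 5 on this axis, whereas 0 of 6 other glutathione peroxidases reached 1 TPM.

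NRF2 binds an antioxidant element, and its core was looked for as TGACNNNGC on both strands of the RefSeq promoters (GRCm38.p6, 250 bases before to 50 after a start). Of the 9 genes with a promoter in that table, 2 held it, in 2 of 14 windows, beside 12.4% of 32851 windows and 14.0% of 27025 genes. Both matches read on the opposite strand, so the capitals below are the complement. They are shown because Prdx1 and Txnrd1 are often named as NRF2 targets. The stretch for Prdx1 is chr4:116685450-116685490, with the match starting 133 bases before the start, and the stretch for Txnrd1 is chr10:82859098-82859138, starting 92 bases before an internal start. A match is a description of letters, not a bound site.
Prdx1: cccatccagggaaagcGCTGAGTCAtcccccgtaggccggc
Txnrd1: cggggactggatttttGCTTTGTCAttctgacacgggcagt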

How the data were processed

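RNA of mouse Treg cells was sequenced in 3 libraries. What the authors deposited are unnormalised counts of fragments for each gene. Per the file headers, featureCounts 1.4.6-p4 counted read pairs with both ends mapped, in its reversed strand mode (option 2), over exons of GENCODE M13. The build is mm10, per the labels. Aligner settings are not stated in the labels or headers. Symbols came from GENCODE M21 by unversioned identifier (50376 of 50600 matched; same GRCm38 build), and TPM was computed from the counts and the deposited merged exon length. The 10 genes, the lists and the tests were chosen with earlier results of these data known. Named were the 10 genes, the highest and lowest 3 of each list by mean TPM, called list genes, the 3 protein-coding genes nearest in level to the highest and lowest of the 10, and Xist and Ddx3y. Txnrd2, Gsr, Gclc, Cybb, Ncf1 and Ncf4 fall outside that rule; all but Txnrd2, a fixed pair partner, were named after their values were seen. So were Foxp3, Ikzf2 and the globin genes from the marker lists and the pseudogene copies.

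Pairs of genes were compared as the log2 ratio of TPM + 1 within each library by an exact sign-flip permutation test (two-sided), whose smallest p is 0.25. No contrast between groups exists for edgeR's quasi-likelihood test. The chi-square test between libraries (2 degrees of freedom) used TMM effective sizes (edgeR 4.0.16, R 4.3.3), took genes with 30 or more fragments in all, and was adjusted over all of them (Benjamini-Hochberg). A lowest count of 0 was replaced by 3 fragments in ratios. DESeq2 1.42.0 gave alternative size factors, and blastn 2.17.0 sought near-identical copies. Fragment numbers speak for counting error only. Python 3.11.15 ran scipy 1.17.1 for the tests, with tables in pandas 2.3.3 and numpy 2.4.6 and plots in matplotlib 3.10.9.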

Additional observations from a re-analysis of the deposited data

How the results depend on the processing

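All 10 genes kept 1 TPM, and also 10 TPM, in every library, and 0 of them were called between libraries under DESeq2 size factors, library totals, no filter on low counts, a ratio of 1.5, or without any 1 replicate. The number of all genes called was 1496; it was 2379 without the filter and 514 to 775 when 1 replicate was left out and the other 2 were compared. The mean differences of the 8 fixed pairs stayed above 0 under each pseudocount, the effective length (merged length less 200 bases), the longest transcript and the shortest principal transcript (the last chosen after seeing the data), and without any 1 replicate, but Txn1 over Txn2 vanished with the shortest principal transcript (0.01 ± 0.11, exact sign-flip permutation p = 1). CPM with no length reversed Txn1 over Txn2 (-0.30, log2), Txn1 over Txnrd1 (-0.31), Prdx3 over Prdx1 (-0.99), Prdx2 over Txnrd1 (-1.08) and Gpx4 over Prdx5 (-0.17), as these genes differ in length. The longest transcript reversed Prdx3 over Prdx1 (-0.36), and the shortest principal transcript reversed that pair (-1.74) and Prdx2 over Txnrd1 (-0.11). Levels of 10, 9, 8 and 3 of the 10 genes moved by more than 1 SD with a total that leaves out mitochondrial and ribosomal protein genes, the shortest principal transcript, the longest transcript and the effective length. Leaving out 1 replicate moved none by that much. No paired analysis was possible because there was 1 group. With 3 libraries no sign-flip test can pass 0.05, and depth limits what is said of genes with few or no fragments.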

Other observations

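The sources of oxidants were split by gene. Of 16 oxidant-source genes found, 6 reached 1 TPM in every library. Rac2, the small GTPase that switches on the phagocyte NADPH oxidase, was at 684 ± 38.0 TPM and Cyba, the small membrane subunit of that oxidase, at 588 ± 57.8 TPM (SD, n = 3). Cybb, which carries the catalytic centre beside Cyba, had 11, 6 and 9 fragments, or 0.155, 0.0721 and 0.0530 TPM, in replicates 2, 3 and 4. Ncf1 and Ncf4, which encode cytosolic subunits, were at 45.4 ± 6.33 and 56.1 ± 3.34 TPM. Nox3, Nox4, Noxa1 and Duox1 had no fragment. Nox1, the 1 gene of the list called between libraries by the chi-square test, had 23, 0 and 13 fragments. Ero1l, the oxidase of the endoplasmic reticulum that works in the same compartment as Prdx4, was at 88.7 ± 5.27 TPM. By merged exon length that was above Prdx4 in each library, and other lengths were not examined for this pair.

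Of 13 genes linked to ferroptosis, the form of death that Gpx4 restrains, 8 reached 1 TPM in every library. The transferrin receptor gene Tfrc led at 523 ± 34.96 TPM, followed by Pebp1 (229 ± 3.70 TPM) and Acsl4, which places polyunsaturated fatty acids into membranes (128, 102 and 105 TPM in replicates 2, 3 and 4). Aifm2, a suppressor that acts beside Gpx4, was at 0.298, 0.643 and 0.291 TPM from only 15, 38 and 35 fragments, and was called (ratio 2.26). Alox5, Alox12 and Slc40a1 had no fragment.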
